A study of Mus musculus with 14 samples.

Results

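The effect of losing miR-22 was followed in 2 mouse organs, liver and kidney, through the positions at which their transcripts end. The comparison used 4 of the 14 libraries of the series: wild-type liver, miR-22 knockout liver, wild-type kidney and miR-22 knockout kidney. They were taken by tissue and genotype alone, with no measured value. Intervals on one strand that overlapped or touched in any of the 4 lists were merged, which gave 111397 poly(A) sites. Of these, 17114 carried enough tags to be tested, and 30778 had tags in all 4 libraries.

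All mice are given the background 129S5/SvEvBrd, and the knockout is the miR-22D line in the labels' protocol. The tissue labels are liver and kidney, with no part of the organ named, and total RNA was used. Each tissue and genotype gave 1 library, and the labels state that there was no biological replication. The labels give no age, sex or number of animals, and do not say whether the 2 organs of a genotype came from the same mouse. The p-values below therefore measure the spread between organs and libraries, not the spread between animals.

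A microRNA is a short RNA that guides an Argonaute protein to transcripts, mostly in the 3′ untranslated region, where pairing with bases 2 to 8 of the microRNA, its seed, lowers the transcript's stability and translation. miR-22 is made in many tissues and is best known from heart and skeletal muscle. Cleavage and polyadenylation set where the 3′ untranslated region stops. The choice between a proximal and a distal poly(A) site thus decides which microRNA target sites a transcript carries. The hairpin gives a 5p and a 3p product, and both lose their source when the gene is deleted. The mouse sequences from RefSeq (GRCm38.p6) are shown 5′ to 3′ because they are what the knockout removes, with the seed in capitals. The products share no seed.
mmu-miR-22-5p: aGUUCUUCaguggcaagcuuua
mmu-miR-22-3p: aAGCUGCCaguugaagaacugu

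The measurement was 3P-seq, a sequencing method that counts tags that end at a cleaved, polyadenylated 3′ end. The libraries held 4202040 tags in wild-type liver, 3347910 in knockout liver, 3778688 in wild-type kidney and 2847317 in knockout kidney. The mitochondrial genome took 5.66% and 5.5% of the tags in wild-type and knockout liver, and 22.7% and 16.4% in kidney. Levels are given as CPM, tag counts scaled to library size with TMM, which assumes that most sites do not change. Positions are in mm9, counted from 1, and a single position is where the interval with most tags ended. Sites carry no gene name, since no annotation of that build was used here. The miR-22 gene was not located for the same reason, so the genotype labels were not checked against it.

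The 20 sites that most set liver apart from the other 5 tissues of the series summed to 32600 and 28700 CPM in wild-type and knockout liver, against 124 and 137 CPM in kidney. The 20 kidney sites summed to 9015 and 8943 CPM in kidney, against 85.3 and 78.4 CPM in liver. These sums follow from how the lists were chosen and are no check of the labels. Sites of other tissues were present at lower levels. Adipose sites summed to 1046 and 722 CPM in wild-type and knockout liver, and muscle sites to 1760 and 1272 CPM in kidney. These lists were drawn from the same libraries, and 1 site of them, on the adipose list, was called between genotypes. Their part in the results below was not tested.

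One property of the libraries moved with genotype and has to be read beside the results. A deposited interval was at most 36 nt wide. Intervals under 30 nt held 1.52% of the tags in wild-type and 7.22% in knockout liver, and 2.26% and 21.5% in kidney. The share was also higher in knockout heart (2.63% and 9.87%), muscle (3.08% and 3.61%) and adipose tissue (2.99% and 8.32%), but not in lung (2.64% and 2.03%). No source used here says how intervals were drawn.

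The first question was which sites changed in the same direction in both organs. In the fit over the 4 libraries with a term for tissue and 1 for genotype, 140 sites were higher in knockout, 0.818% of the 17114 tested, and 39 were lower, 0.228% (edgeR quasi-likelihood, adjusted p under 0.05). Together these are 1.05% of the sites. Before adjustment 1671 sites had a p under 0.05. The called sites of the 2 directions differed in starting level. The higher sites were mostly weak in wild type: their median rose from 3.86 to 13.3 CPM in liver and from 3.53 to 23.4 CPM in kidney. The lower sites started well above the median site and fell from 26.7 to 6.48 CPM in liver and from 29 to 6.61 CPM in kidney, while the median over all tested sites lay between 7.31 and 7.81 CPM in the 4 libraries. Both lists were chosen by these ratios, so the levels describe them and test nothing.

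Of the sites called higher, 137 were higher in both organs and 111 (79.3%) were at least 2-fold higher in both. Of the sites called lower, 33 were lower in both and 25 (64.1%) at least 2-fold lower in both. In the rest 1 organ moved less than 2-fold or the other way, since the fit averages the 2. The fit looks for a common change, so agreement in direction follows largely from the call. The median log2 difference was 2.16 for the higher and -2.07 for the lower sites. No site was called below a log2 difference of 1.17, so smaller changes are not resolved by these libraries.

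**Figure D1:**
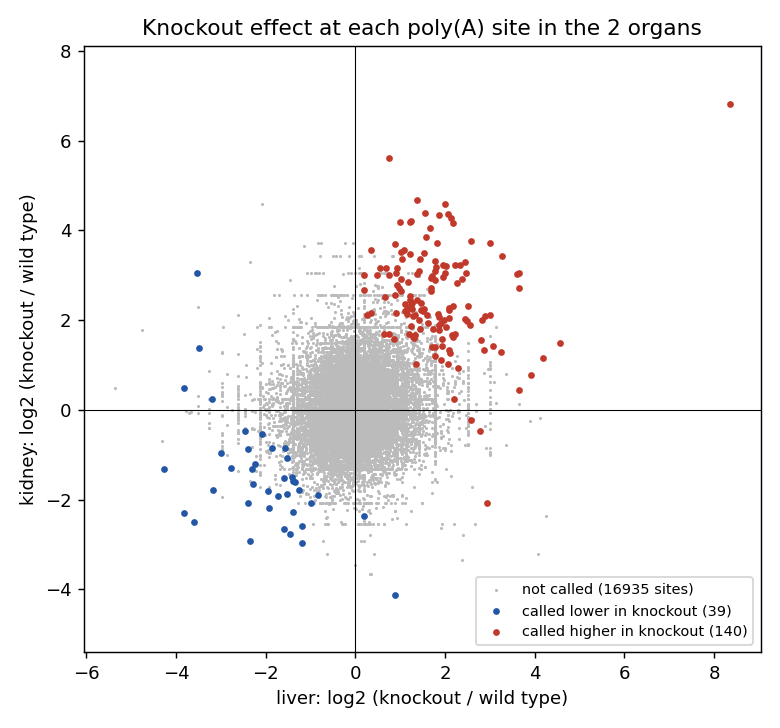
Log2 ratio of knockout to wild type at each tested poly(A) site in liver (horizontal axis) and kidney (vertical axis), 1 library per genotype and organ, with a prior of 0.5 tags. The 140 sites called higher (red) and 39 called lower (blue) lie mostly in the quadrants where both organs moved the same way, and the chromosome 1 site lies alone at the upper right.

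With 1 residual degree of freedom per site, the fit set each site against a spread shared by sites of like abundance (common biological coefficient of variation 0.246), not against its own. Scaling by library totals instead of TMM left 69 sites higher and 8 lower, so the split leaned further toward higher sites. Estimating the spread from the 12 libraries of all 6 tissues left 43 sites higher and 6 lower. That count depended on single tissues, at 16 and 2 without the muscle pair and 97 and 20 without the adipose pair.

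Narrow sites were frequent among the sites called higher. Merged sites under 30 nt wide made up 141 of the tested sites (0.824%). They held 46 of the 140 sites called higher (32.9%) and 1 of the 39 called lower. Their median log2 ratio was 0.87 in liver and 1.57 in kidney, against medians between -0.08 and 0.09 for the 3 wider classes (30 to 36 nt, 37 to 60 nt and 61 nt or more) in either organ. Across the tissues not used in the call the median of the narrow sites was 0.76 in heart, 0.33 in muscle, -0.50 in lung and 0.88 in adipose tissue. It was positive in the tissues where knockout had the larger share of narrow intervals and negative in lung. A merged site is at least as wide as its widest liver or kidney interval. In those organs sites under 30 nt thus held only narrow intervals, so their ratios are tied to the library shares by construction. The match across tissues describes these sites and tests nothing.

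The remaining sites called were 94 higher and 38 lower. When sites under 30 nt were left out of the fit altogether, an alternative chosen after the data were seen, 77 sites were called higher and 31 lower. Wider sites also held narrow intervals. Among the 94 wider sites called higher, narrow intervals gave 5.83% and 9.41% of the tags in wild-type and knockout liver and 13.1% and 52% in kidney, against 0.981%, 6.44%, 1.54% and 20.5% over all tested sites of that width. For the 38 wider sites called lower the 4 shares were 0.254%, 4.94%, 1.03% and 20.3%. The part of interval width in the higher calls was not tested.

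**Figure D2:**
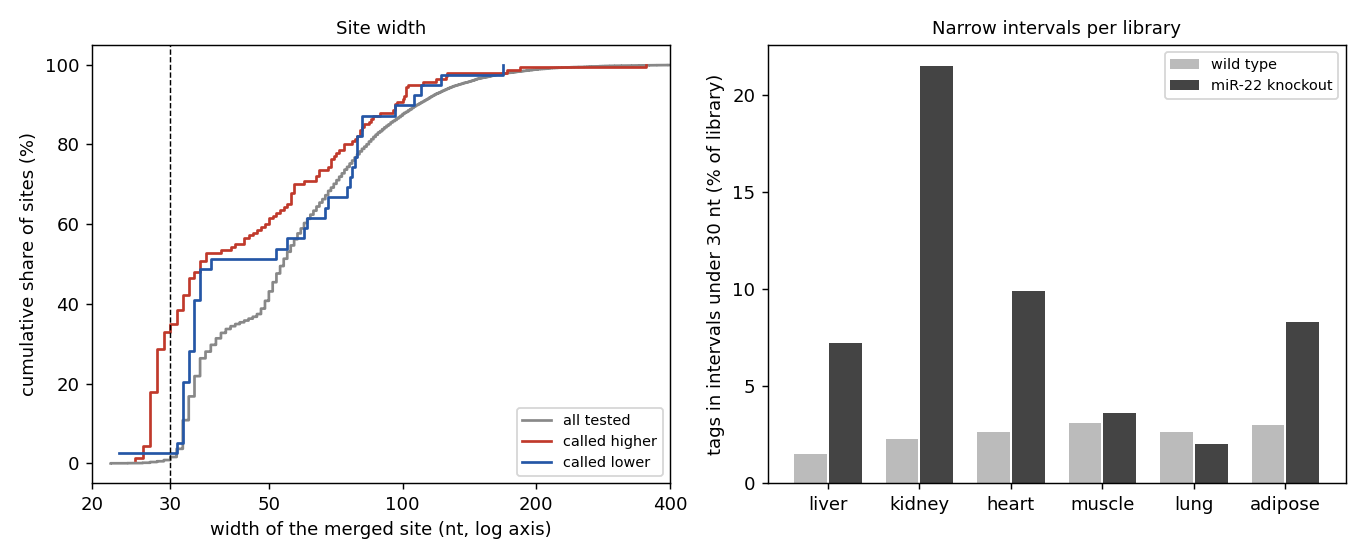
Left, cumulative share of all tested sites, sites called higher and sites called lower against the width of the merged site (log axis), with a dashed line at 30 nt. Right, share of each library's tags in deposited intervals under 30 nt for 6 tissues and 2 genotypes (1 library per bar): 32.9% of the sites called higher lie left of the line, and the knockout bar is the taller one in every tissue except lung.

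The site of smallest p was at chromosome 1, 162968633 to 162968667 (+). It carried 1 tag in wild-type liver, 427 in knockout liver, 1 in wild-type kidney and 143 in knockout kidney, or 0.297, 146, 0.252 and 42.9 CPM. It was nearly empty in both wild types and well filled in both knockouts. The fitted log2 difference was 8.14, standard error 0.67 (edgeR adjusted p = 1.52e-29). The ratio of tags scaled to library size was 490 in liver (exact binomial 95% interval 87.5 to 19400) and 170.4 in kidney (30.1 to 6777). The intervals cover counting error only, here and below, because each organ and genotype had 1 library. Tags were not counted with molecular identifiers and several can come from 1 molecule, so the intervals may be too narrow even for that error.

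The same site was higher in knockout in each of the 4 tissues that played no part in the call, with log2 ratios of 4.52 in heart, 5.29 in muscle, 7.46 in lung and 7.04 in adipose tissue. Its term for those tissues was 6.22 (edgeR adjusted p = 1.3e-12). At 35 nt it was not among the narrow sites. Within 5000 nt on its strand it held 0.529% of 378 wild-type tags and 59.7% of 955 knockout tags of the 2 organs together.

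Its neighbours did not move with it as a group. A second site, 1799 nt upstream at 162966868, went from 1 to 16 tags in liver and from 1 to 10 in kidney (log2 difference 3.75, edgeR adjusted p = 0.00187). The nearest tested site, 406 nt upstream at 162968261, had 63 and 60 tags in wild-type and knockout liver and 69 and 41 in kidney (log2 difference -0.18, edgeR adjusted p = 0.962). Of the other tested neighbours, none passed the test, with adjusted p between 0.569 and 0.96. Among the tested sites of this stretch, 2 were called.

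Wider sites rose in both organs as well. At chromosome 13, 51943741 to 51943840 (+), the tags were 147 in wild-type and 1029 in knockout liver and 144 and 526 in kidney, which is 43.7, 351, 36.3 and 158 CPM. Knockout exceeded wild type 8.03-fold in liver (6.75 to 9.62) and 4.35-fold in kidney (3.61 to 5.27), with a log2 difference of 2.57 (standard error 0.37, edgeR adjusted p = 1.26e-08). It also lay above wild type in heart, muscle, lung and adipose tissue, by 0.84, 0.93, 0.99 and 1.44 on the log2 scale, although its term for those tissues missed the threshold (edgeR adjusted p = 0.421).

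A cluster of 4 sites on chromosome 12 between 16541636 and 16543993 (-) was called higher as a group. Its main site at 16542763 went from 274 to 2257 tags in liver and from 110 to 228 in kidney (log2 difference 2.31, edgeR adjusted p = 5.34e-07). The smaller site at 16541636 went from 10 to 217 tags in liver and from 4 to 10 in kidney. All 4 sites had the larger ratio in liver, but the difference between the organs did not pass the test at any of them. That test resolves only very large differences, as given below. At the main site the other 4 tissues showed log2 ratios between -0.38 and 0.1.

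A pair of sites 4199 nt apart on chromosome 11 was higher in knockout in all 6 tissues. The site at 75280192 (+) had 145 and 367 tags in wild-type and knockout liver and 130 and 523 in kidney (log2 difference 1.90, edgeR adjusted p = 0.000151). Its partner at 75284391 (+) had 529 and 682 tags in liver and 97 and 729 in kidney (log2 difference 1.82, edgeR adjusted p = 0.00048). At the second site the log2 ratio was 3.16 in kidney and 0.56 in liver. This difference between organs did not pass the same test of low power. Both passed in the other 4 tissues as well, with terms of 2.23 (edgeR adjusted p = 0.0293) and 3.20 (0.000201). Since the miR-22 gene was not located, it was not checked whether this pair lies at or near the deleted gene. A change at the altered locus itself therefore cannot be told apart here from a response to the lost microRNA.

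Several of the remaining leading sites were narrow and stood alone. The site at chromosome 10, 116409790 to 116409816 (-), 27 nt wide, had 83 and 259 tags in liver and 140 and 1563 in kidney (log2 difference 2.82, edgeR adjusted p = 1.36e-09). The chromosome 1 site at 43946536 to 43946562 (+) had 17 and 82 tags in liver and 60 and 498 in kidney (log2 difference 2.95, edgeR adjusted p = 7.4e-08). The chromosome 10 site at 44312902 to 44312928 (+) had 37 and 127 tags in liver and 102 and 806 in kidney. Each had the larger ratio in kidney, with no called difference between the organs, and the nearest tested site was between 65960 and 228800 nt away.

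Other leading sites rested mostly on 1 organ. The chromosome 8 site at 88348501 (+) had 12 and 18 tags in liver but 12 and 513 in kidney. The chromosome 5 site at 12992099 (-) had 16 and 37 tags in liver and 13 and 288 in kidney. The chromosome 1 site at 141759079 (-) was the reverse case, with 27 and 438 tags in liver and 3 and 6 in kidney. In these sites both organs lay on the same side, but 1 of them carried most of the change.

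**Figure D3:**
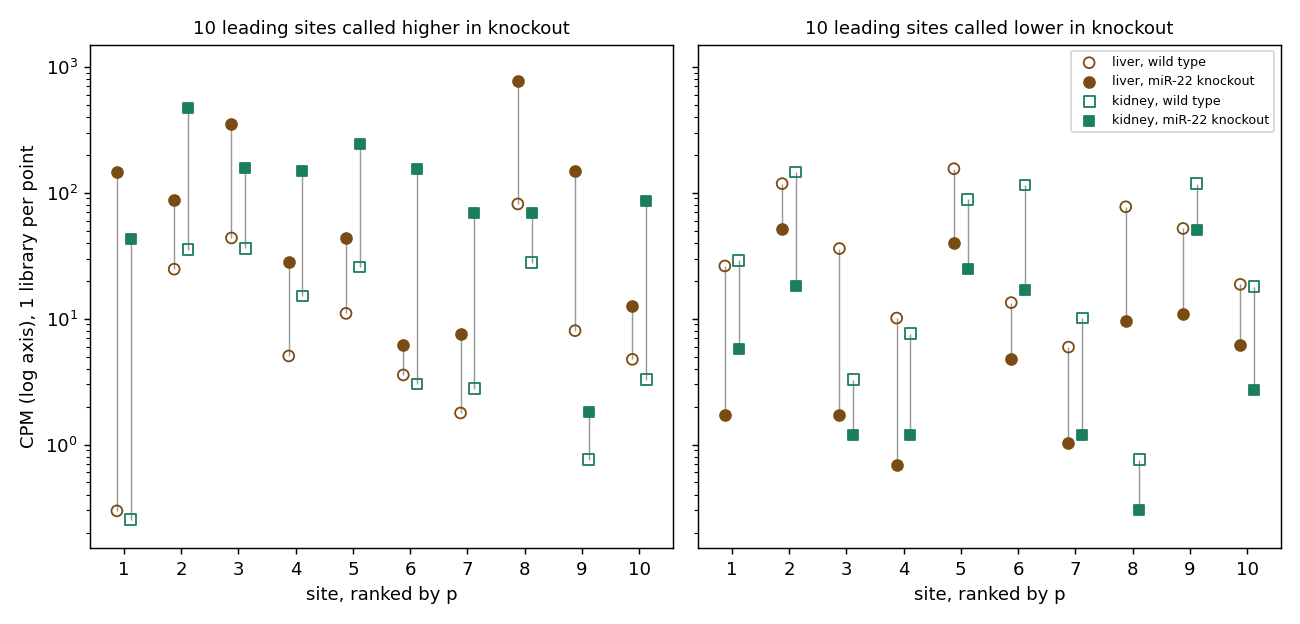
CPM (log axis) in wild type (open) and knockout (filled) for the 10 sites of smallest p per direction among sites called and moving the same way in both organs, liver as circles and kidney as squares, 1 library per point. Site 1 on the left is the chromosome 1 site at 162968667, whose wild-type points lie under 1 CPM. Site 8 on the right has all but 4 of its tags in liver.

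Among the lower sites the leading one was at chromosome 5, 130322188 to 130322263 (+). It had 88 tags in wild-type and 5 in knockout liver, and 115 and 19 in kidney, or 26.2, 1.71, 29 and 5.7 CPM. Both knockout libraries lay below both wild types. The fitted log2 difference was -2.96, standard error 0.51 (edgeR adjusted p = 6.93e-06). In the other tissues its log2 ratio was -4.92 in adipose tissue, -0.03 in lung, 0.04 in muscle and 3.00 in heart.

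More abundant sites fell as well. At chromosome 8, 32260333 to 32260413 (-), tags went from 520 to 118 in liver and from 352 to 83 in kidney, so the 2 organs showed nearly equal log2 ratios of -1.94 and -1.82 (edgeR adjusted p = 0.000236). At chromosome 11, 68887033 to 68887064 (+), they went from 397 to 150 in liver and from 579 to 61 in kidney (log2 difference -2.07, edgeR adjusted p = 5.23e-05). Neither site moved the same way in all other tissues. The 32 nt site on chromosome 11 had log2 ratios of 1.12 in heart and 0.97 in lung. These rest on few tags, 1 and 4 in wild-type and knockout heart and 4 and 12 in lung.

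A single called site was lower in knockout in all 6 tissues. This was chromosome 7, 110961034 to 110961143 (-), with 45 and 14 tags in wild-type and knockout liver and 458 and 56 in kidney (log2 difference -2.26, edgeR adjusted p = 0.000322). Its log2 ratios in heart, muscle, lung and adipose tissue were -1.58, -1.40, -0.41 and -1.84. Their common term of -1.28 missed the threshold (edgeR adjusted p = 0.407). Being lower in heart, muscle, lung and adipose tissue alike held for 2.56% of the sites called lower and 5.11% of all tested sites. The list of lower sites thus showed no excess of such cases.

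Some lower calls came from neighbouring sites or mainly from liver. On chromosome 17 the sites at 35093376 and 35106311 (-) fell together, the first from 175 to 32 tags in liver and from 468 to 169 in kidney, the second from 15 to 1 and from 145 to 35. The chromosome 9 site at 107583611 (+) had 260 and 28 tags in liver but only 3 and 1 in kidney. The chromosome 9 site at 66875781 (-) had 121 and 5 tags in liver and 13 and 4 in kidney. It was far stronger elsewhere, with 71950 and 58260 tags in wild-type and knockout heart and 234291 and 66283 in muscle. Whether its tags in liver and kidney came from other tissue was not tested. Fewer cells of a type and less RNA per cell cannot be told apart at any of these sites in bulk RNA.

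The called sites were spread over the genome. Counting sites of one strand within 50 kb as 1 locus, the higher sites formed 131 loci and the lower sites 37. Only 9 loci held 2 or more called sites, and in all 9 the sites moved one way. Autosomes and chromosome X each had between 0.63% (chromosome 19) and 1.65% (chromosome 9) of their tested sites called. Higher sites were also more isolated: their median distance to the nearest tested site was 25160 nt, against 6203 nt for lower sites and 2517 nt over all tested sites. This went with width, since the median distance was 148400 nt for the 46 narrow sites called higher and 3544 nt for the other 94.

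The next question was whether these changes appeared in tissues whose libraries had no part in the call. The sites called higher lay above wild type more often than tested sites did in 3 of the 4 tissues. In heart it was 101 of 140 sites (72.1%, against 43.3% of all tested sites), in muscle 94 (67.1%, against 57.1%) and in adipose tissue 114 (81.4%, against 57.1%). In lung it was 52 (37.1%, against 46.4%). The median log2 ratio of the 140 sites was 0.80, 0.45 and 0.91 in heart, muscle and adipose tissue and -0.41 in lung.

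In heart and lung these counts differed by site width. Of the 94 higher sites of 30 nt or more, 60 (63.8%) were higher in heart, 66 (70.2%) in muscle, 44 (46.8%) in lung and 76 (80.9%) in adipose tissue. Over all tested sites of 30 nt or more the shares were 43%, 57%, 46.6% and 57% in that order, so lung showed nearly no excess. Of the 46 narrow ones, 41 (89.1%) were higher in heart and 8 (17.4%) in lung, against 73% and 27% of all tested sites of that width. In muscle 28 (60.9%) and in adipose tissue 38 (82.6%) of the narrow ones were higher, against 63.8% and 75.9%. In muscle and adipose tissue the wider sites alone gave shares close to those of the full list.

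**Figure D4:**
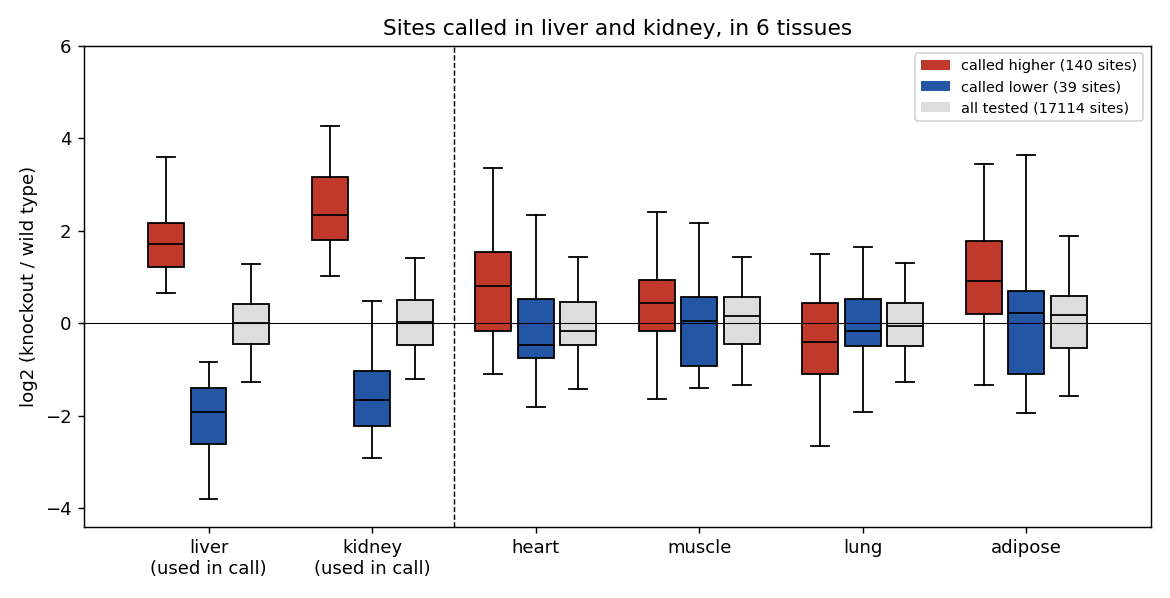
Log2 ratio of knockout to wild type in 6 tissues for sites called higher (red, 140), called lower (blue, 39) and all tested (grey, 17114). Boxes span the quartiles with the median as a line, and whiskers leave out 5% of the sites at each end. Liver and kidney chose the lists; in the other tissues the red median is 0.80, 0.45, -0.41 and 0.91, and the blue one follows no common direction.

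Few sites passed a test in the other tissues on their own. The term for heart, muscle, lung and adipose tissue together called 4 sites, 0.0234% of those tested, and 3 of them were among the 140 called higher. They were the chromosome 1 site at 162968667 and the chromosome 11 pair. Whether any of them lies at the deleted gene was not checked. The difference between the 2 organs together and the other 4 tissues was called at 5 sites (0.0292%), 3 of them among the 140. At an unadjusted p under 0.05, 32 of the 140 (22.9%) were higher in the other tissues, against 3.39% of all tested sites. Called sites that passed this limit in the opposite direction were not counted. The chromosome 5 site at 12992099 (-) was 1 of them, with a term of -1.68 (edgeR unadjusted p = 0.00077).

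The 39 sites called lower in liver and kidney were lower in knockout in 22 of 39 cases in heart (56.4%, against 56.7% of tested sites), 18 in muscle (46.2% and 42.9%), 24 in lung (61.5% and 53.6%) and 19 in adipose tissue (48.7% and 42.9%). None was called in the other tissues by edgeR. At an unadjusted p under 0.05, 7 of the 39 were lower there (17.9%, against 2.62% of tested sites). Some went the other way at that limit, such as the chromosome 2 site at 31752202 (-), with a term of 1.97 (edgeR unadjusted p = 0.000182). Sites going the other way were not counted, so the 17.9% alone does not show agreement in direction.

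The third question was which changes belonged to 1 organ. Within an organ 1 library stood against 1, so sites were counted by size with no test, at 20 CPM or more in the higher library. Kidney showed more differences than liver. In liver 258 sites were at least 2-fold higher (4.89%) and 345 lower (6.54%), in all 11.4% of 5272. In kidney 454 were higher (8.73%) and 549 lower (10.6%), in all 19.3% of 5203. Scaled by library totals the direction turned, with 310 higher and 211 lower in liver and 716 and 356 in kidney. That scaling moved the median log2 ratio from -0.12 to 0.03 in liver and from -0.12 to 0.09 in kidney.

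At a 4-fold limit the higher sites prevailed in both organs. There were 43 higher and 31 lower in liver, 1.4% of sites, and 85 and 24 in kidney, 2.09%. Among the 3647 sites at 20 CPM or more in both organs, 61.1% moved in the same direction, and the log2 ratios of the organs had a Pearson r of 0.34 and a Spearman rho of 0.27. The correlation is across sites, which share the 4 libraries and are not independent replicates. The spread of the log2 ratio was wider in kidney (SD 0.74) than in liver (0.59).

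Large changes overlapped in part. Of these 3647 sites, 119 were at least 2-fold higher in liver and 248 in kidney, and 42 were so in both. That is 35.3% of the liver list, against 6.8% of all 3647 sites higher in kidney. It is 16.9% of the kidney list, against 3.26% of all these sites higher in liver. On the lower side 159 and 337 sites gave 28 in both, 17.6% and 8.31% of the lists, against 9.24% and 4.36% of all these sites. Of the 119 sites higher in liver, 7 were at least 2-fold lower in kidney, against 9.24% of all 3647 sites. Of the 159 lower in liver, 2 were at least 2-fold higher in kidney, against 6.8% of all these sites. Whether these counts fall below those of unrelated lists was not tested.

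At the 4-fold limit these 3647 sites held 15 higher and 6 lower in liver, and 34 higher and 5 lower in kidney. Of these, 3 of the 15 and 4 of the 6 differed by under 1.5-fold in kidney, and 13 of the 34 and 2 of the 5 by under 1.5-fold in liver. The share of all 3647 sites under 1.5-fold in the other organ was not computed. These counts are therefore not read as a sign of changes held to 1 organ. None of these sites differed between the organs by the test of the difference itself. Sites under 20 CPM in either organ were not counted. Among the sites counted that were under 1.5-fold in kidney, the largest difference in liver was at chromosome 1, 9950244 (-). It had 164 tags in wild-type and 10 in knockout liver against 212 and 175 in kidney (log2 difference between organs -3.78). Its CPM were 48.7 and 3.41 in liver and 53.4 and 52.5 in kidney.

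Among the sites counted that were under 1.5-fold in liver, the largest difference in kidney was at chromosome 18, 35064134 (-). It had 10 and 79 tags in kidney against 73 and 67 in liver. The chromosome 15 site at 34413776 (-) was the liver counterpart among higher sites, with 65 and 277 tags in liver and 96 and 80 in kidney. On the lower side of kidney, the chromosome 7 site at 31202595 (+) had 322 and 64 tags in kidney and 87 and 91 in liver. The rule by size does not exclude a shared call: the second chromosome 11 site, at 75284391, meets it for kidney and was called over both organs.

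The direct test of liver against kidney, with the spread taken from the 12 tissue libraries, called 3 of 17114 sites (0.0175%), and 367 had an unadjusted p under 0.05. At chromosome 18, 7030251 (+), tags went from 3 to 51 in liver and from 93 to 8 in kidney (log2 difference between organs 7.51, edgeR adjusted p = 0.00415). At chromosome 17, 70013392 (-), they went from 43 to 7 and from 7 to 61 (-5.73, adjusted p = 0.0421). At chromosome X, 11354911 (-), they went from 26 to 5 and from 9 to 192 (-6.78, adjusted p = 0.0421). In all 3 the organs moved in opposite directions, and the last 2 were narrow sites of 25 and 26 nt.

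Tag numbers at these sites were low, and DESeq2 called none of the 3. The common biological coefficient of variation in this fit was 0.324. A site without a called difference may therefore still differ between the organs.

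The last question was whether knockout changed the share of tags between neighbouring poly(A) sites. Whether the sites of a pair end transcripts of the same gene was not tested, since no annotation was used. Shifts in share are therefore not read as site choice within a transcript. Tested sites that follow each other on a strand at 100 to 5000 nt gave 3066 tandem pairs, a median of 674 nt apart, and the share of a pair's tags at its distal site was compared. The median distal share was 52.3% in wild-type and 52% in knockout liver, and 52.1% and 52.8% in kidney. The shared fit called 19 pairs (0.62%), of which 11 shifted toward the distal and 8 toward the proximal site (edgeR adjusted p under 0.05), and 301 had an unadjusted p under 0.05. All 19 shifted the same way in both organs, 12 of them by at least 20 percentage points in each. Of the 19, 3 lie at the chromosome 1 locus, where the site at 162966868 is the distal member of 1 called pair and the proximal member of another, so these are not separate shifts.

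Among distal shifts the smallest p was that of the chromosome 1 site described above, against its neighbour at 162968261. The distal share rose from 1.56% to 87.7% in liver and from 1.43% to 77.7% in kidney (log2 odds 8.21, edgeR adjusted p = 1.12e-23). The proximal site had 18.7 and 20.5 CPM in liver and 17.4 and 12.3 in kidney. This was the only called pair that also passed in the other 4 tissues, though it had 7 tags in wild-type muscle and 2 in wild-type adipose tissue. Of the 19 pairs, 14 had the same sign in those tissues, but the share over all pairs was not computed. The count is therefore not read as a result. Only 11 of the 19 had at least 20 tags in every library of those tissues.

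On chromosome 11 the pair at 103539496 and 103538168 (-), 1328 nt apart, went from 41.7% to 80.3% distal in liver and from 48.6% to 87.8% in kidney (edgeR adjusted p = 0.00813). Proximal tags went from 21 to 12 and from 19 to 9 while distal tags went from 15 to 49 and from 18 to 65. On chromosome 5 the pair at 135614069 and 135615635 (+) went from 55.9% to 77.8% distal in liver, with 429 and 378 tags, and from 29.9% to 79.8% in kidney, with 67 and 114 (edgeR adjusted p = 0.0128).

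Toward the proximal site the pair of smallest p was on the mitochondrial genome, between 4948 and 5065 (+). Its distal share fell from 14.1% to 4.26% in liver and from 49.9% to 4.4% in kidney (log2 odds -3.30, edgeR adjusted p = 5.91e-09). In the other 4 tissues the share moved by between -6.77 and 2.22 points. In kidney both sites moved, with proximal tags going from 486 to 2953 and distal tags from 484 to 136.

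Nuclear pairs with proximal shifts were smaller in tags. On chromosome X the pair at 147524029 and 147521637 (-) went from 54.3% to 18.9% distal in liver, with 35 and 53 tags, and from 45.8% to 11.1% in kidney, with 48 and 108 (edgeR adjusted p = 0.0131). On chromosome 15 the pair at 12111544 and 12114225 (+) went from 54.8% to 24.3% in liver and from 53.1% to 9.18% in kidney (edgeR adjusted p = 0.0098). In both pairs the proximal site gained tags in each organ. The proximal site of the chromosome 15 pair was 29 nt wide, in the narrow class.

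**Figure D5:**
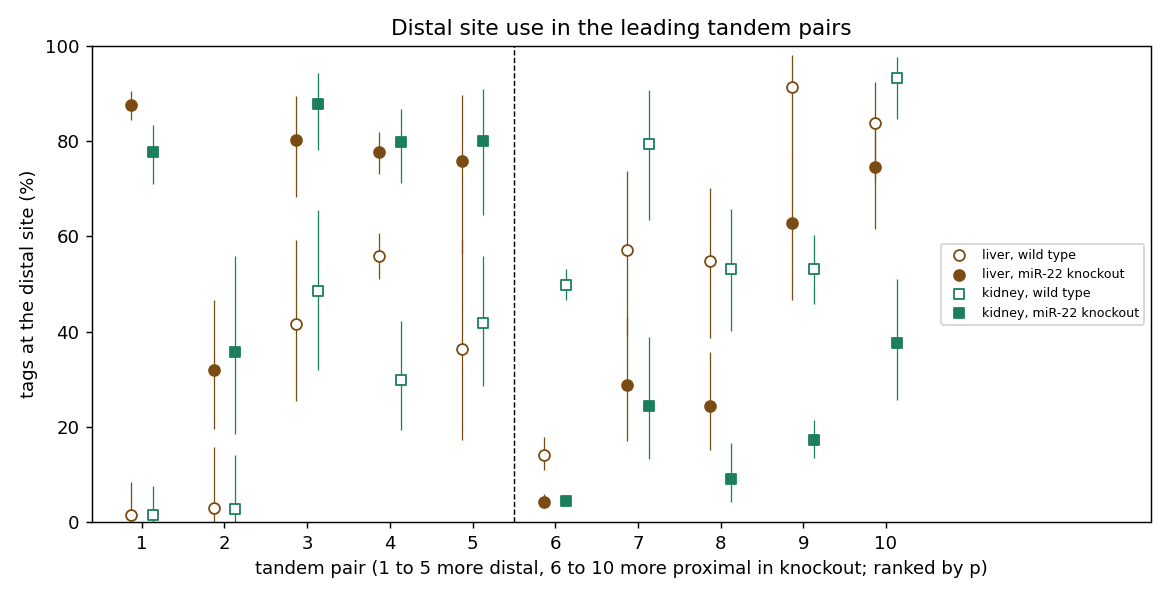
Share of a pair's tags at the distal poly(A) site in wild type (open) and knockout (filled) for the 5 leading tandem pairs per direction, liver as circles and kidney as squares, 1 library per point, with exact binomial 95% intervals that cover counting error only. Pair 1 goes from 1.56% to 87.7% in liver, and pair 6, on the mitochondrial genome, from 49.9% to 4.4% in kidney.

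Within single organs shifts went about equally in both directions. At 20 percentage points or more, liver had 113 pairs more distal and 105 more proximal (7.11% of pairs), and kidney 186 and 175 (11.8%). The organs shared 16 of the distal and 21 of the proximal shifts, and 11 pairs moved in opposite directions. Whether these counts exceed the overlap of unrelated lists of this size was not tested. Across the 3066 pairs the shifts of the organs had a Pearson r of 0.16 and a Spearman rho of 0.13, again a description across pairs that share libraries.

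Some pairs had a large shift in 1 organ and a smaller one in the other. On chromosome 17 the distal share of the pair at 35093376 and 35089188 (-) went from 12.5% (8.26% to 17.9%) to 61% (49.6% to 71.6%) in liver, and from 8.24% to 11.5% in kidney. This pair holds the site called lower at 35093376, and its proximal tags went from 175 to 32 in liver. On chromosome 9 the pair at 50442880 and 50442743 (-) went from 78.4% (71.7% to 84.1%) to 18.7% (11.3% to 28.2%) distal in kidney, and from 27.8% to 37.9% in liver. Neither pair passed the shared test (edgeR adjusted p = 0.0595 and 0.0778), and the difference between organs was not tested for pairs.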

How the data were processed

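Total RNA of liver and kidney was profiled by 3P-seq, per the labels' protocols. The submitters' processing notes name CASAVA 1.7, Bowtie and mm9. No Bowtie version and no rule for grouping reads into intervals is given in the sources used here. Each deposited interval carries an estimated count of tags from the authors, unscaled. In the 4 libraries between 1.99% and 3.76% of these counts are not whole. Sums per merged site were rounded.

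Analysis used R 4.3.3 and edgeR 4.0.16 (DESeq2 1.42.0 as an alternative). The filterByExpr function (grouped by tissue, minimum count 10) chose the sites, which were scaled by TMM, with p-values adjusted by Benjamini-Hochberg over all sites tested. The shared fit had terms for tissue and genotype, with 1 residual degree of freedom, and its prior degrees of freedom were infinite. The tests of other tissues and of liver minus kidney used the 12 tissue libraries, with 4 and 3 residual degrees of freedom. They take the spread of the genotype effect between tissues to hold for single organs. Tandem pairs needed 20 tags in each library and 5% of the tags at each site. The site-use fit had 1 residual degree of freedom. Log2 ratios within an organ used a prior of 0.5 tags.

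Named sites are, per direction, the 10 of smallest p among called sites moving the same way in both organs, 5 by the smaller of the 2 log2 ratios, 5 per organ in 1 organ only, those called between organs, their called neighbours within 50 kb, and for pairs 5 called and 3 per organ. Some of these are printed. The members, lists and alternatives were chosen with earlier results of these data known. Same-tissue libraries form the pairs, so tissue is the block of the shared fit. The fits were tested on simulated data, and alternatives covered scaling, test, filters, merging and left-out libraries. The mESC and 3T3 libraries were not used here.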

Additional observations from a re-analysis of the deposited data

Results flagged for a closer look

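At 3 sites the genotype effect differed between liver and kidney (edgeR adjusted p under 0.05). The log2 difference, liver minus kidney, was 7.51 at chromosome 18, 7030251 (+), -5.73 at chromosome 17, 70013392 (-), and -6.78 at chromosome X, 11354911 (-). Each carried at most 192 tags in any of the 4 libraries. None was called in the shared fit, where opposite effects cancel.

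At 5 sites the effect in liver and kidney together differed from that in heart, muscle, lung and adipose tissue, 0.0292% of the sites tested. The chromosome 2 site at 31752202 (-) was lower in knockout liver and kidney and higher in heart, muscle and adipose tissue (log2 difference -4.75, edgeR adjusted p = 0.00328). The chromosome 5 site at 12992099 (-) was higher in the 2 organs and lower in heart, muscle and lung (4.82, adjusted p = 0.00328). The site at chromosome 13, 18477251 (-) was higher in the 2 organs and lower in heart, lung and adipose tissue (3.39, adjusted p = 0.015). The chromosome 15 site at 67705764 (+) went from 2 to 26 tags in liver and from 16 to 113 in kidney (3.73, adjusted p = 0.00946). The chromosome 17 site at 30315864 (+) owed its difference of -5.42 (adjusted p = 0.00569) mainly to lung, where the log2 ratio was 6.30.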

How the results depend on the processing

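The shared counts of 140 higher and 39 lower sites came to 69 and 8 with library totals, 26 and 6 with DESeq2's Wald test and 43 and 6 with the spread of 12 libraries. Leaving out 1 tissue pair of the 12-library fit gave 5 to 97 higher and 0 to 20 lower: 11 and 0 without liver, 5 and 3 without kidney, 47 and 7 without heart, 16 and 2 without muscle, 48 and 12 without lung, and 97 and 20 without adipose tissue. Without the tissue term, that is without the replicate block that makes the comparison paired by tissue, edgeR called 0 sites in either direction, with 81 at an unadjusted p under 0.05. Without sites under 30 nt it was 77 and 31. The other 6 settings gave 96 to 140 higher and 28 to 41 lower. Of the values recomputed at named sites, 363 stayed called and 202 did not, all in the same direction.

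The liver-minus-kidney count of 3 was 5 with library totals, 5 with no filter, 0 with DESeq2 (137 at an unadjusted p under 0.05) and 2 to 6 without 1 other tissue pair. Without the heart pair the chromosome 17 site at 70013392 was lost (edgeR adjusted p = 0.065). Counts by size within an organ moved with the limits by construction: liver had 505 higher at 10 CPM, 100 and 138 (higher, lower) at 50 CPM and 43 and 31 at 4-fold, and 211 lower with library totals. Kidney had 803 higher at 10 CPM, 183 and 256 at 50 CPM, 85 and 24 at 4-fold, and 716 and 356 with library totals. Around 0, the kidney log2 ratio at chromosome 15, 34413776 turned from -0.01 to 0.17 with library totals and 0.12 when merged over 12 libraries, and that at chromosome 1, 9950244 from -0.02 to 0.15 with library totals.

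For site use, the 11 distal and 8 proximal calls became 6 distal at a 10% share, 2 and 3 at 50 tags, 1 and 1 with DESeq2 and 1 and 0 without the replicate block. Pairs shifted by 10 and 30 points numbered 878 and 42 in liver and 1133 and 87 in kidney. Where no cause is named, the cause was not tested. Pairs needed 20 tags in each library, a depth that limits the precision of their shares.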
